A study of Mus musculus with 6 samples.

Results

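The semaphorins, their plexin receptors and the neuropilin co-receptors were described here by the DNA methylation of their genes in the dentate gyrus, the entry region of the hippocampus. Members were the protein-coding autosomal genes of GENCODE M21 whose symbol is Sema followed by a digit or begins with Plxn, together with Nrp1 and Nrp2. This gave 29 genes of 20807, namely 7 secreted semaphorins, 13 membrane-bound semaphorins, 7 plexins and 2 neuropilins. The window of a gene ran from 1 kb upstream of its start to its end, and the 29 windows held 1904 of the 890041 covered cytosines. Methylation had been measured by reduced representation bisulfite sequencing (RRBS), which cuts DNA at CCGG and so samples CpG-rich stretches, and each value is the percent of reads at a cytosine that were methylated. All 6 libraries came from micro-dissected dentate gyrus of female C57BL/6JRj mice aged 4.5 months, with no transgene and 1 mouse per library. The 3 STD mice had lived in standard cages and the 3 ENR mice in environmental enrichment, and the comparison asked whether enriched housing changed methylation. Replicates are written STD1 to STD3 and ENR1 to ENR3. A percentage from micro-dissected tissue pools all its cell types, so a change in the mixture of cells and a change within a cell type cannot be told apart. The data hold no expression values, so the tissue label was not checked against marker genes.

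Semaphorins are extracellular signals that steer growing axons and dendrites, prune synapses and guide migrating cells. Class 3 semaphorins are secreted and mostly bind a neuropilin, which has almost no signalling tail of its own and passes the signal through a plexin. Classes 4 to 6 span the membrane, Sema7a is held by a lipid anchor, and most of these bind plexins directly. Plexins carry an intracellular domain that inactivates small GTPases, and in the hippocampus several members shape the mossy fibres and the dendritic spines of granule cells. In mammalian genomes CpG-rich gene starts are usually unmethylated, whereas CpGs in gene bodies and in repeats are usually methylated.

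Coverage differed widely between members. The largest number of sites was in Sema6d with 172, followed by Plxna4 with 131 and Sema4c with 130. Sema3b had 1 site and Sema4a had 2, so these 2 members were below the minimum of 3 sites and were given no test. Sema3g, with 4 sites, had none near its start. The share of all CpGs of a window that were covered ran from 0.377% in Sema3b to 28.4% in Sema4c, so the levels given here describe the minority of CpGs that RRBS reads. All 1904 sites were CpGs in the reference, they belonged to 1621 CpGs, and 0 of them lay in the window of a further autosomal protein-coding gene. At the 283 CpGs read on both strands the strands differed by a median of 0.943 percentage points.

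The following stretches are shown because they are all rich in CpGs but ranged from nearly unmethylated to nearly fully methylated. They are examples, not the extremes. They are printed 5′ to 3′ on the plus strand of GRCm38 (mm10), with every covered CpG in capitals, and the values are means of all covered sites of the cluster, a cluster being a run of sites with gaps of at most 200 bases. They were chosen after their values were seen. A stretch of Nrp1 outside exons, whose first site is 1066 bases from the gene start and which comes within 273 bases of a transcript start (chr8:128359665-128359764), had 0.587% ± 0.577 in STD and 1.19% ± 2.06 in ENR (SD, n = 3 each, as for the other stretches).
Nrp1 intron: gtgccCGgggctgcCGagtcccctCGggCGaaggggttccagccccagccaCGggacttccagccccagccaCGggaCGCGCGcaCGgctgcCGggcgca
An intron of Nrp2 (chr1:62749800-62749862) and an intron of Plxnb2 (chr15:89173473-89173566) were also nearly unmethylated although they lay 46103 and 2790 bases from the nearest transcript start. The Nrp2 stretch had 4.25% ± 3.54 in STD and 3.88% ± 1.14 in ENR, and the Plxnb2 stretch had 1.37% ± 1.16 and 0.790% ± 0.691.
Nrp2 intron: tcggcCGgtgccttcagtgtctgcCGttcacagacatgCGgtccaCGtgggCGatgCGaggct
Plxnb2 intron: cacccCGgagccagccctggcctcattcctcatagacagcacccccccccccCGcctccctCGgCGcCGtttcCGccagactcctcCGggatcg
In contrast, an intron of Sema3c (chr5:17682665-17682701) and an intron of Sema6d (chr2:124352972-124353049) were almost fully methylated, at 97.1% ± 1.08 and 99.1% ± 0.623 in STD and at 96.0% ± 2.38 and 97.3% ± 3.18 in ENR.
Sema3c intron: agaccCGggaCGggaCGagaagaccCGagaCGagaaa
Sema6d intron: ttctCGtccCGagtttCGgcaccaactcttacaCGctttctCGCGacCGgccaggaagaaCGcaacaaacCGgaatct
Between these levels lay a coding exon of Sema6b (chr17:56124005-56124159, 51.4% ± 8.63 in STD and 62% ± 5.89 in ENR) and a cluster of 28 sites in and beside coding exons of Sema5b (50.5% ± 2.86 and 50.8% ± 1.35), of which the beginning is printed (chr16:35660052-35660211, 9 covered CpGs).
Sema6b coding exon: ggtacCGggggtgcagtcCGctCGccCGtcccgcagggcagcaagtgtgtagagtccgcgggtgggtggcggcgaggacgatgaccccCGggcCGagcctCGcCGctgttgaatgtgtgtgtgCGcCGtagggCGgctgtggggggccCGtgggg
Sema5b, beginning of the cluster: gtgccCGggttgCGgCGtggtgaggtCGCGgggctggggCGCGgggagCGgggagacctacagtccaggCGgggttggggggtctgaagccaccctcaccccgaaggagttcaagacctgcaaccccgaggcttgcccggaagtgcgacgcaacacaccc
The Sema3c and Sema6d stretches lay wholly in repeat-masked sequence of the reference, the Nrp2 stretch had no masked base and 34.5% of the Plxnb2 stretch was masked.

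Almost every member was unmethylated where it starts. Within 1 kb of the annotated gene start, 24 of the 25 members with at least 3 sites there had a mean under 5% over the 6 libraries. The share of all genes under 5% was not taken for this region, so this count has no background beside it. When sites within 1 kb of any annotated transcript start were pooled, which is called the promoter here, 19 of 26 members were under 5%, beside 74.8% of 13879 promoters of all autosomal protein-coding genes. The median promoter level was 2.21% over these 26 members and 1.97% over all genes. Among members with more than 100 CpGs in the 2 kb around the gene start the lowest promoter was that of Plxna4, a receptor for several class 3 and class 6 semaphorins. Its 34 sites had 0.719%, 1.02% and 0.703% in the STD mice and 0.123%, 1.00% and 0.411% in the ENR mice. Next came Sema4c, a membrane-bound ligand of Plxnb2, whose 126 promoter sites had 1.5%, 1.02% and 1.14% in STD and 1.02%, 1.00% and 1.53% in ENR. In both genes the groups overlapped and no library was above 2%.

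Promoter means over 20% were found in 2 of 26 members, beside 9.06% of all promoters, and means over 10% in 4, beside 15.5%. No member exceeded 40%, beside 5.06%. The 4 members were Sema6c, Plxnb2, Sema5b and Sema3a, and each had both unmethylated and methylated sites among those within 1 kb of a start. Which members stood high depended on that width. Within 500 bases of a start 2 members were again over 20%, beside 6.76% of 13390 genes, but they were Plxnb2 (25.4% ± 1.42, SD over the 6 libraries, 23 sites) and Plxnd1, the receptor of Sema3e (21.3% ± 1.78, 13 sites, beside 6.87% within 1 kb). Sema6c and Sema5b had 1.19% (7 sites) and 2.07% (39 sites) there. Within 2 kb of a start Sema6c had 51.4% and Plxnb2 32.5%. In Sema6c, a membrane-bound semaphorin, the 11 promoter sites had 33.0%, 35.2% and 37.4% in STD and 35.5%, 34.9% and 36.4% in ENR. The 7 sites next to the gene start were almost unmethylated, with 2.08% ± 3.61 in STD and 0.298% ± 0.515 in ENR, whereas 4 sites in an exon 609 bases from an internal start had 93.1% ± 3.25 and 97.4% ± 2.25. The promoter mean of Sema6c thus lay between the levels of these groups of sites.

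In Plxnb2, a plexin that binds class 4 semaphorins, the 32 promoter sites had 20.3%, 21.4% and 21.7% in STD and 22.4%, 23.6% and 19.2% in ENR. Sites within 1 kb of the gene start averaged 2.12%, while 6 sites 107 bases or more from a start near the 3′ end had 88.6% in STD and 93.9% in ENR. Sema5b, which carries thrombospondin repeats, had 18%, 17% and 17.4% in STD and 17.9%, 18.7% and 16.9% in ENR over 89 promoter sites. Its gene start averaged 2.11%, and the higher values came from a cluster of 28 sites in and beside coding exons, of which the beginning is printed above, 622 bases or more from an internal start. The groups overlapped in all these genes.

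Sema3a, the secreted repellent that acts through Nrp1 and class A plexins, had a CpG-poor annotated gene start, with 30 CpGs in 2 kb and 3 covered sites. These 3 sites had 78.2%, 78.9% and 72.8% in STD and 40.3%, 87.2% and 73.1% in ENR, so ENR1 was well below the other libraries. At a second start, 274103 bases downstream, 8 sites averaged 1.23% ± 0.835 in STD and 0.687% ± 0.254 in ENR. Sema3a was thus the only member with a mean over 20% within 1 kb of the annotated gene start (1 of 25, beside 5.8% of 12817 genes), and that value rests on 3 sites. Plxna2, which binds class 3 and class 6 semaphorins, also had few CpGs around its annotated gene start (21 in 2 kb), but its 82 promoter sites lay around an alternative start and averaged 1.2%.

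**Figure D1:**
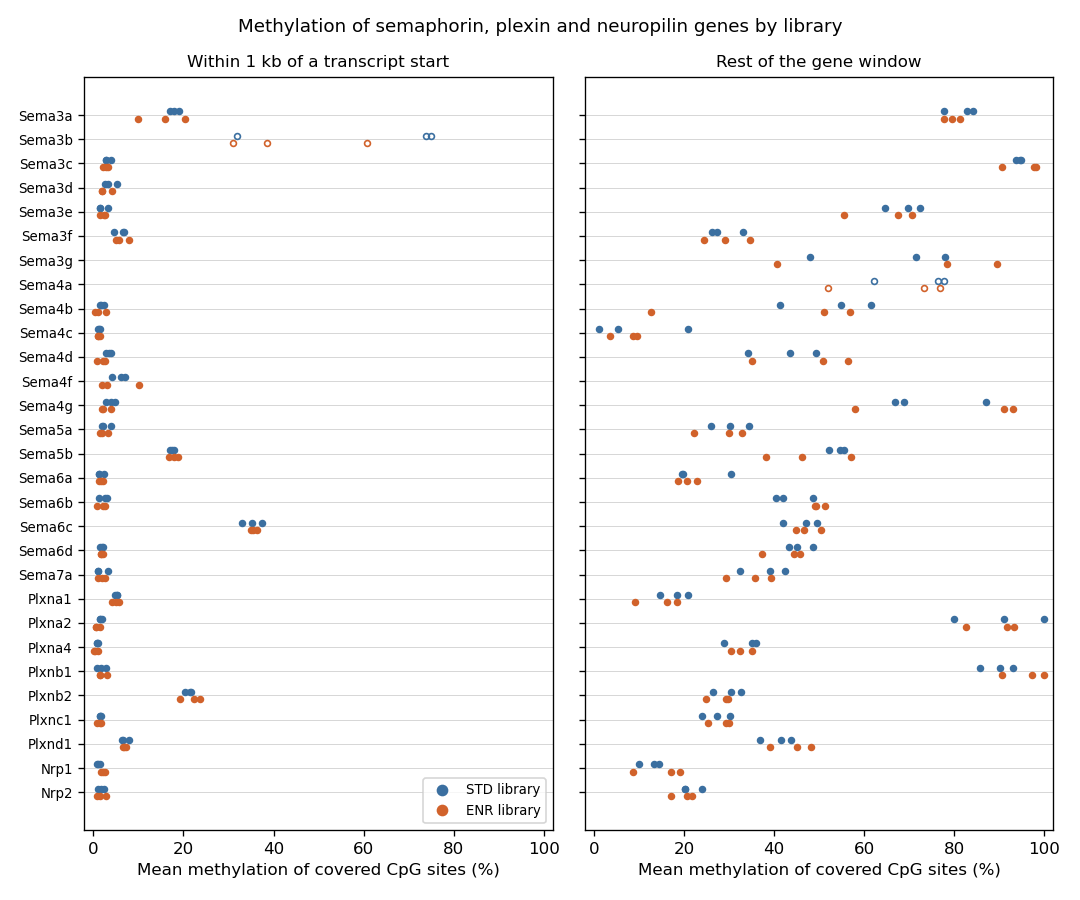
Mean methylation in percent (x axis) of the covered sites within 1 kb of a transcript start (left) and of all other sites of the window (right) for each member (y axis), with 1 point per library, and open points where fewer than 3 sites were covered. At promoters most members sit near 0, with Sema6c, Plxnb2, Sema5b and Sema3a further right, and the open points of the 1 Sema3b site run from 31.0% to 75.0%. Outside promoters the levels run from 8.13% (Sema4c) to 94.9% (Sema3c).

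Away from promoters the members differed far more. The 25 members with at least 3 such sites had a median of 44.1%, beside 53.3% over 8999 genes. Among the secreted ligands the highest was Sema3c, which attracts some cortical axons, with 94.9% ± 2.80 (SD over the 6 libraries, 11 sites), and the lowest was Sema3f, which acts through Nrp2, with 29.1% ± 3.96 (16 sites). Among the membrane-bound ligands, values ran from 8.13% ± 6.97 in Sema4c (4 sites) to 77.4% ± 14.8 in Sema4g (5 sites). Among the plexins Plxnb1, a receptor of Sema4d, had 92.8% ± 5.16 (5 sites) and Plxna1 had 16.2% ± 4.09 (8 sites). Both neuropilins were low, at 13.8% ± 4.06 in Nrp1 (16 sites) and 20.7% ± 2.27 in Nrp2 (64 sites). The extremes rest on few sites. Neighbours in this order, such as Sema6b (46.7%) and Sema6c (46.8%), differed by less than their spread between libraries.

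Member sites further from the nearest transcript start of their gene were more methylated up to 20000 bases. Over the member sites it was 2.89% ± 0.250 within 500 bases (925 sites), 8.84% ± 0.444 from 500 to 1000 bases (358 sites) and 17.9% ± 1.46 from 1000 to 2000 bases (121 sites). It reached 28.4% ± 2.82 from 2000 to 5000 bases (135 sites), 52.2% ± 2.99 from 5000 to 20000 bases (136 sites) and 44.7% ± 3.51 beyond (229 sites). All autosomal protein-coding genes gave 3.45%, 8.32%, 21%, 35.9%, 46.3% and 44.2% in the same bins. The member curve thus ran below that of all genes from 1000 to 5000 bases and above it from 5000 to 20000 bases. Distance was taken only to starts of the site's own gene, and a site in overlapping windows was counted once per gene. In all genes a far site can thus lie at the start of another gene. No member site lay in the window of another autosomal protein-coding gene, so the curves do not come from like sites. Sites of 1 gene are not independent, and the difference between the curves was not tested.

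**Figure D2:**
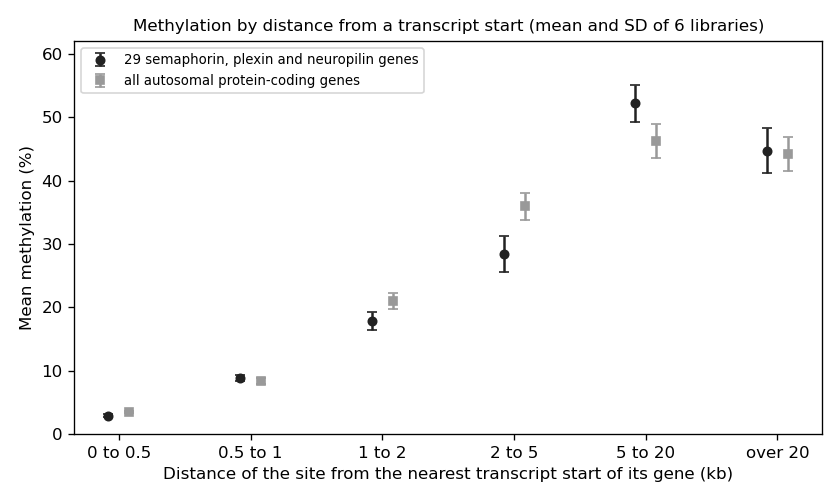
Mean methylation in percent (y axis) against distance from the nearest transcript start of the same gene in kb (x axis, in bins) for the 29 members and for all autosomal protein-coding genes, as mean and SD of the 6 libraries. Both sets go from about 3% near starts, with 2.89% in the members and 3.45% in all genes, to over 40% beyond 5 kb.

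Within genes, stretches of opposite state lay side by side. Of 83 clusters of 3 or more sites that were over 1 kb from every start of their gene, 17 averaged under 10%, 46 from 10% to 80% and 20 over 80%. Of the 69 clusters that touched a promoter, 59 were under 10% and 4 over 80%. When only sites over 1 kb from a start were taken, coding exons had a higher mean than sequence outside exons in 5 of the 8 members with at least 3 sites in each. In Plxna4 the 20 coding-exon sites averaged 80.9% and the 77 sites outside exons 20.5%. In Sema6b the values were 54.5% (21 sites) and 30.4% (10 sites), and in Nrp2 39.3% (4 sites) and 12.7% (53 sites). Plxnc1, the receptor of Sema7a, went the other way, with 16.1% over 26 coding-exon sites and 36.5% over 37 sites outside exons, and Nrp1 did as well, with 5.62% over 4 sites and 23.4% over 8. Over all members together coding-exon sites averaged 53.3% ± 1.85 (123 sites), beside 37.9% in all genes, and sites outside exons 34.1% ± 2.71 (450 sites), beside 42.6%. Plxnc1, Sema6b, Plxna4 and Sema6c held 26, 21, 20 and 14 of the 123 sites, with 16.1%, 54.5%, 80.9% and 69.4%. The SD here is over libraries, not genes, and sites of 1 gene are not independent. In all genes such sites can also lie at the start of another, overlapping gene. These differences were not tested.

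CpG-rich sequence away from starts was found in both states. Sites are called island-like where the GC content of the surrounding 201 bases reached 50% and CpGs occurred at 0.6 or more of the frequency that base composition predicts. Island-like member sites over 1 kb from a start averaged 35.8% ± 1.27 (132 sites), beside 18.2% in all genes. In all genes such sites can lie at the start of another, overlapping gene. No member site lay in the window of another autosomal protein-coding gene. These values thus do not come from like sites, and their difference was not tested. The island-like member sites were almost unmethylated in Plxnc1 (0.825%, 11 sites), Sema5a (1.98%, 9 sites), Nrp2 (2.07%, 17 sites) and Plxna4 (3.03%, 8 sites). They were almost fully methylated in Sema3a (96.9%, 7 sites), Sema3c (96.6%, 5 sites) and Sema6d (98.0%, 8 sites). Sema6b (54.7%, 14 sites) and Sema6c (44.8%, 30 sites) were intermediate. The methylated stretch of Sema3a (chr5:13226732-13226783), like those of Sema3c and Sema6d, was wholly repeat-masked. Of 5 clusters over 1 kb from a start with more than 50% masked bases, 4 averaged over 95%, and of the 78 others 3 did. The exception was a stretch of Sema7a, 9931 bases from a start, with 3.98%.

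In the 3′ part of Sema6c, 4 neighbouring clusters of exon sites stepped from higher to lower methylation. The clusters beginning 12060, 12378, 12833 and 13268 bases from the gene start averaged 66.0%, 64.3%, 35.1% and 15.9% over the 6 libraries. The first pair lay in coding exons and the last pair in the non-coding part of an exon.

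**Figure D3:**
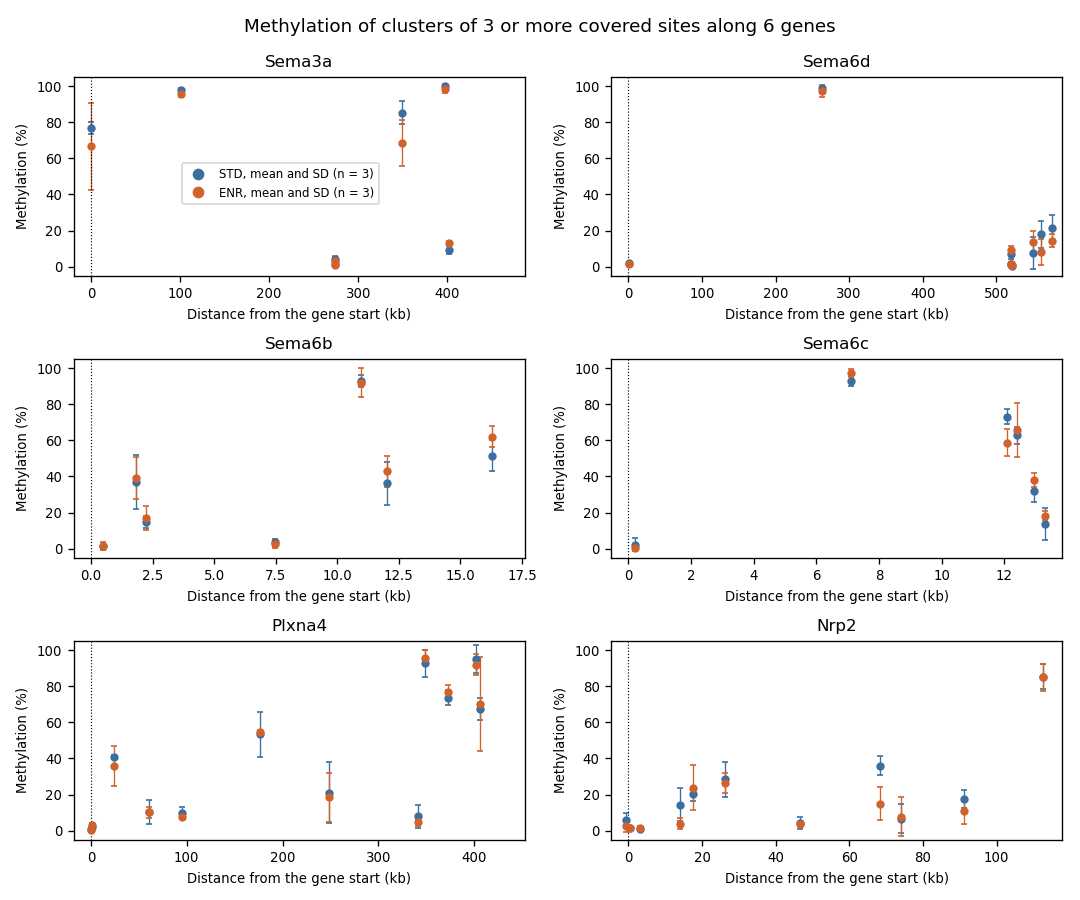
Methylation in percent (y axis) of clusters of 3 or more covered sites against distance from the gene start in kb (x axis) along 6 members, with 1 point for the STD mean and 1 for the ENR mean and SD bars (n = 3 mice each). Starts lie near 0 except at the CpG-poor gene start of Sema3a, the intronic cluster of Sema6d stands at 99.1% in STD, and the clusters of Sema6c step down towards the gene end.

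The libraries numbered 3 of both groups were lower at sites of intermediate methylation. At the 231 member sites with a mean of 20% to 80%, STD3 and ENR3 had 39.6% and 39.8%, while the other 4 libraries had 47.3% to 49.3%. The same was seen at the 129689 such sites of the whole data set, with 43.6% and 37.6% against 50.9% to 52.3%. Each housing group held 1 such library. The differences of the named members are therefore also given without both, and the labels name no batch.

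Housing did not give a called difference in any member. Gene window means were compared with limma over all genes, and 0 of 27 members had a Benjamini-Hochberg adjusted p under 0.05, as had 0% of 15565 genes. At an unadjusted p under 0.05 limma gave 0 of 27 members, beside 3.66% of genes, and the groups overlapped in all 27, whereas they did not in 8.35% of genes. The count of 0 was 2 without ENR2 and 1 without STD1, without ENR3, without both libraries numbered 3 and after quantile normalization. The window was lower in ENR in 17 members and higher in 10, beside 58.2% lower over all genes. The median difference (ENR minus STD) was -0.46 percentage points over the members and -0.18 over all genes. For the members it was -0.104 without STD1 and -0.139 without STD2, and it turned to 0.0168 without ENR3 and to 0.261 after quantile normalization. With medians over sites, which left 12 members that varied, it was -0.772. The 95% limma intervals reached from 0.832 to 32.8 percentage points on either side of the estimate, with a median of 3.51.

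The lowest p for a gene window was that of Sema6b. This membrane-bound semaphorin had 32.9%, 27.7% and 28.1% in STD and 33.3%, 32.6% and 34.5% in ENR over 47 sites. STD2 and STD3 were below all ENR mice and STD1 was among them. The difference was 3.89 percentage points (95% interval -0.821 to 8.60, limma adjusted p = 1.00). Without both libraries numbered 3 it was 2.68. Nrp1 had 4.70%, 4.21% and 3.82% in STD and 6.49%, 6.45% and 3.91% in ENR over 59 sites. ENR1 and ENR2 were above all STD mice, and ENR3 was not (difference 1.38, interval -0.567 to 3.32, limma adjusted p = 1.00). The difference was 2.23 without ENR3 and 2.02 without both libraries numbered 3. Plxna2 had 4.59%, 4.56% and 4.90% in STD and 3.42%, 4.74% and 3.73% in ENR over 85 sites. ENR2 lay within the STD range and the other ENR mice below it (difference -0.718, interval -1.93 to 0.497, limma adjusted p = 1.00). It was -1.10 without ENR2, -0.447 without ENR1, -0.495 without both libraries numbered 3 and -0.435 after quantile normalization.

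At promoters limma likewise called 0 of 26 members and 0% of 13857 promoters. At an unadjusted p under 0.05 it gave 2 members, beside 4.55% of promoters, and the groups did not overlap in the same 2, beside 9.65%. The count of 2 was 0 after quantile normalization, without both libraries numbered 3 and without STD2, STD3, ENR1 or ENR3, 1 without STD1 and 5 without ENR2. Promoters were lower in ENR in 17 members and higher in 9, beside 52.8% lower over all genes, and the median difference was -0.0907 percentage points over the members and -0.0459 over all genes. After quantile normalization the member median was 0.179, and leaving out 1 library gave values down to -0.279 (without STD3). It was -0.300 within 500 bases and -0.356 within 2 kb of a start. Sema4d, the ligand of Plxnb1 on immune and glial cells, had 2.76%, 3.47% and 3.82% in STD and 2.13%, 2.47% and 0.801% in ENR over 50 sites. All ENR mice were below all STD mice (difference -1.55, interval -3.04 to -0.0579, limma adjusted p = 0.990). Without both libraries numbered 3 the difference was -0.813 and with sites within 2 kb of a start it was -0.590. At the 43 sites within 1 kb of the annotated gene start the groups overlapped, with 0.641%, 2.65% and 2.92% in STD and 0.961%, 1.32% and 0.398% in ENR.

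The promoter of Nrp1 went the other way. Its 43 sites had 1.10%, 0.845% and 1.5% in STD and 2.52%, 1.72% and 2.18% in ENR, so all ENR mice were above all STD mice (difference 0.993, interval 0.0176 to 1.97, limma adjusted p = 0.990). Without both libraries numbered 3 it was 1.15. At the 29 sites within 1 kb of the annotated gene start the groups overlapped, with 0.752%, 1.25% and 1.71% in STD and 3.74%, 1.95% and 1.64% in ENR. Plxna2 came next, with 1.83%, 1.40% and 1.42% in STD and 0.523%, 1.5% and 0.515% in ENR over 82 sites. ENR2 lay within the STD range (difference -0.704, interval -1.61 to 0.205, limma adjusted p = 0.990), and the difference was -0.605 without both libraries numbered 3 and -0.438 after quantile normalization. All of these promoters stayed nearly unmethylated in every mouse, with no library above 4%.

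**Figure D4:**
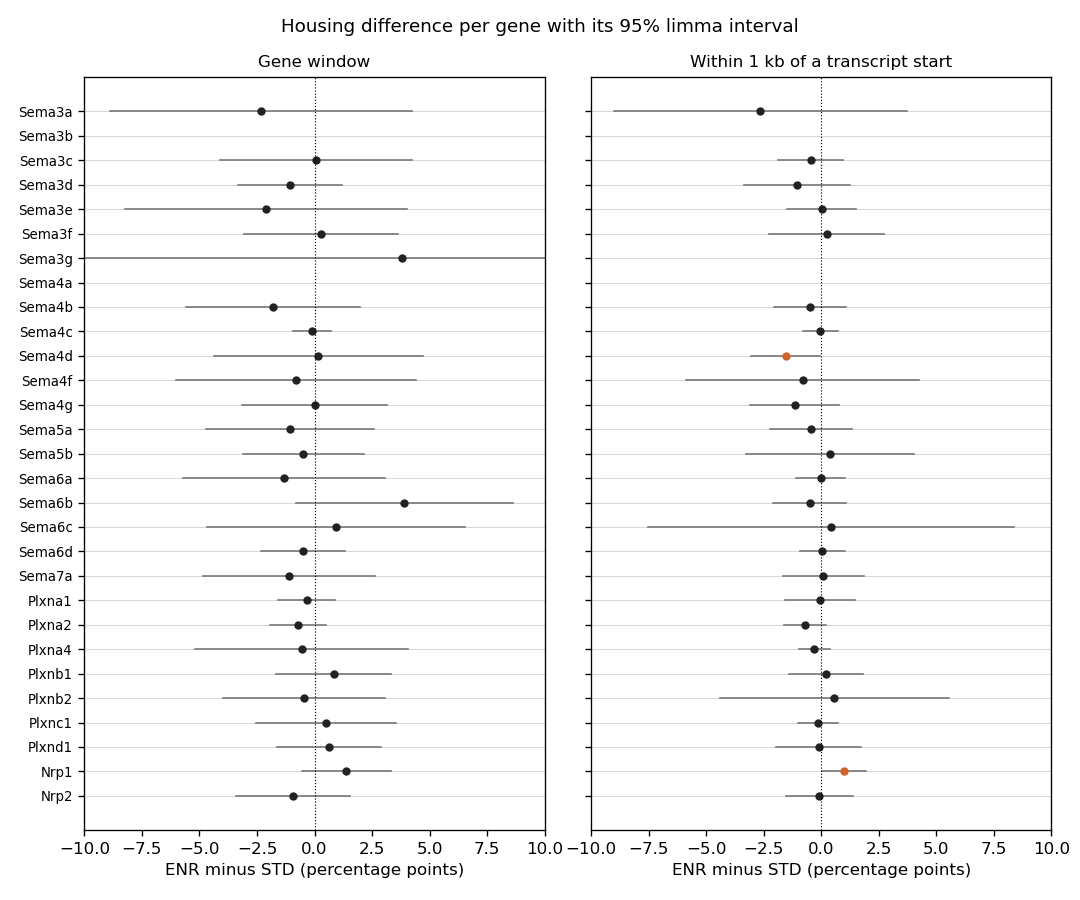
Difference of group means, ENR minus STD, in percentage points (x axis) for the gene window (left) and the promoter (right) of each member with at least 3 sites (y axis), with the 95% limma interval. The only points whose groups did not overlap, drawn in orange, are the promoters of Sema4d (-1.55) and Nrp1 (0.993), and the interval of the gene window of Sema3g, which has 4 sites, extends beyond the axis from -29.0 to 36.6.

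By role, the gene window was lower in ENR in 3 of 6 secreted semaphorins, 9 of 12 membrane-bound semaphorins, 4 of 7 plexins and 1 of 2 neuropilins, with median differences of -0.489, -0.504, -0.351 and 0.216 percentage points. Outside promoters the groups did not overlap in 1 of 25 members, beside 7.13% of 8999 genes. This was Sema6b, with 48.6%, 40.4% and 42.0% in STD and 49.3%, 49.0% and 51.2% in ENR. This measure was not tested across genes. The members under the minimum are given for completeness. The site of Sema3b had 75.0%, 73.8% and 32.0% in STD and 31.0%, 60.9% and 38.5% in ENR, and the mean of the 2 sites of Sema4a, a semaphorin of immune cells, was 77.7%, 76.3% and 62.1% in STD and 51.8%, 76.8% and 73.3% in ENR.

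Single sites were compared next, since a change at a few CpGs is lost in the mean of a window. Limma called 0 of the 1223 member sites that varied between libraries and 0% of 615152 sites. An unadjusted p under 0.05 was found at 23 of them (1.88%), beside 2.68% of all sites. This count was 35 without STD3, 36 without the variance trend and 41 on the arcsine square root scale. Without a test, group means differed by more than 25 percentage points at 26 member sites (1.37%), beside 1.94% of all sites and 1.43% of sites in the windows of all protein-coding genes. The groups did not overlap at 9 of them (0.473% of member sites), beside 0.81% of all sites. Of the 26 sites, 13 were lower and 13 higher in ENR, beside 1.23% and 0.706% of all sites, so that 63.6% of such sites were lower in ENR over the whole data set. Leaving out STD1, ENR1 or ENR2 gave 40, 45 or 56 sites, and leaving out both libraries numbered 3 gave 50. Among sites with a mean of 20% to 80%, where there is room for a change in either direction, 19 of 231 member sites (8.23%) passed the limit, beside 11% of all such sites.

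The 26 sites lay in 12 members. Sema6c had 5 and Nrp2 4, Sema5b and Plxna4 had 3 each, Sema6b, Plxnb2 and Sema3f had 2 each, and Sema3e, Sema3g, Sema4f, Sema5a and Sema6d had 1 each. Only 5 were within 1 kb of a transcript start and 9 were in a coding exon. The sites whose groups did not overlap and that had the lowest p in each direction are printed here with 25 bases on either side, on the plus strand of GRCm38 and with the CpG in capitals. The site of Sema6c in the non-coding part of an exon is given without sequence.
Sema6c, chr3:95172491-95172542: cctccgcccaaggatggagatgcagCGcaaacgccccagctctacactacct
Plxnb2, chr15:89158291-89158342: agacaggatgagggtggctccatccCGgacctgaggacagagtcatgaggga
Nrp2, chr1:62771772-62771823: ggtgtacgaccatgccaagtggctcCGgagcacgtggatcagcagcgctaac
Sema3e, chr5:14116867-14116918: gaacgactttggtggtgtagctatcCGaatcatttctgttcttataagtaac
Sema5b, chr16:35660039-35660090: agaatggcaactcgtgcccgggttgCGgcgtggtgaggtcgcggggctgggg

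Lower in ENR was a coding-exon site of Sema6c at position 95172517, with 95.7%, 100% and 100% in STD and 61.1%, 82.4% and 70.6% in ENR. The difference was -27.2 percentage points (interval -42.6 to -11.8, limma adjusted p = 0.852), and all 5 sites within 100 bases were also lower in ENR, with a mean difference of -11.9. In Plxnb2 a coding-exon site at position 89158316 had 15.8%, 33.3% and 55.0% in STD and 0% in every ENR mouse (difference -34.7, interval -62.2 to -7.22, limma adjusted p = 0.852), and no other site was covered within 100 bases. In Nrp2 a coding-exon site at position 62771798 had 50%, 47.2% and 71.4% in STD and 23.5%, 16.7% and 0% in ENR (difference -42.8, interval -79.2 to -6.38, limma adjusted p = 0.852). Both sites within 100 bases of it were lower in ENR as well, with a mean difference of -16 percentage points. Most of that mean came from the site at position 62771779, whose difference was -29.4 with overlapping groups.

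Higher in ENR was an intronic site of Sema3e, the semaphorin that binds Plxnd1 without a neuropilin, at position 14116892. It had 77.4%, 73.3% and 69.4% in STD and 100% in every ENR mouse (difference 26.6, interval 15.2 to 38.0, limma adjusted p = 0.852). None of the 3 sites within 100 bases went the same way, and their mean difference was -12.4. In Sema5b a coding-exon site at position 35660064 had 71.1%, 66.7% and 50% in STD and 100%, 91.5% and 100% in ENR (difference 34.6, interval 16.8 to 52.4, limma adjusted p = 0.852), and 2 of 8 neighbours were higher in ENR. A second Sema6c site, at position 95173303 in the non-coding part of an exon, had 63.0%, 25.9% and 28.6% in STD and 70.8%, 90% and 80% in ENR (difference 41.1, interval 9.02 to 73.2, limma adjusted p = 0.852), and 4 of 6 neighbours were higher. Sema6c thus held sites that differed by more than 25 percentage points in either direction in different exon clusters. Its cluster beginning 12060 bases from the gene start had 68.6%, 75.9% and 75.1% in STD and 54.6%, 67.2% and 54.4% in ENR, with no overlap, while in the cluster beginning at 12833 bases the values were 37.6%, 33.1% and 25.5% in STD and 35.7%, 36.0% and 42.6% in ENR, with overlap.

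Tiles of 1 kb with at least 3 member sites were compared in the same way. Limma called 0 of 146 member tiles and 0% of 72222 tiles. A call also needed a difference over 25 percentage points, and since the largest among member tiles was 21 no member tile could be called whatever its p. The smallest adjusted p among them was 1. An unadjusted p under 0.05 was found in 5, beside 3.98% of tiles, and the groups did not overlap in 6, beside 8.88%. The count of 5 was 8 without ENR3 and without both libraries numbered 3, and 3 without the variance trend and after quantile normalization. The lowest p was in the tile upstream of Sema4g (chr19:44988001-44989000, 5 sites), a membrane-bound semaphorin, with 16.9%, 11.6% and 11.6% in STD and 7.54%, 5.94% and 5.35% in ENR (difference -7.10, limma adjusted p = 1). The tile around the Nrp2 site above (chr1:62771001-62772000, 4 sites) had 33.4%, 32.3% and 42.0% in STD and 19.1%, 21.2% and 4.66% in ENR (difference -20.9, limma adjusted p = 1). Its sites include that site and its neighbour at position 62771779, so the tile is not independent of them. A single tile was higher in ENR without overlap, in Sema3a (chr5:13527001-13528000, 3 sites), with 11.2%, 9.41% and 7.08% in STD and 13.5%, 13.9% and 12.0% in ENR (difference 3.90, limma adjusted p = 1). In all 3 tiles every mouse of a group was on the same side of the other group.

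**Figure D5:**
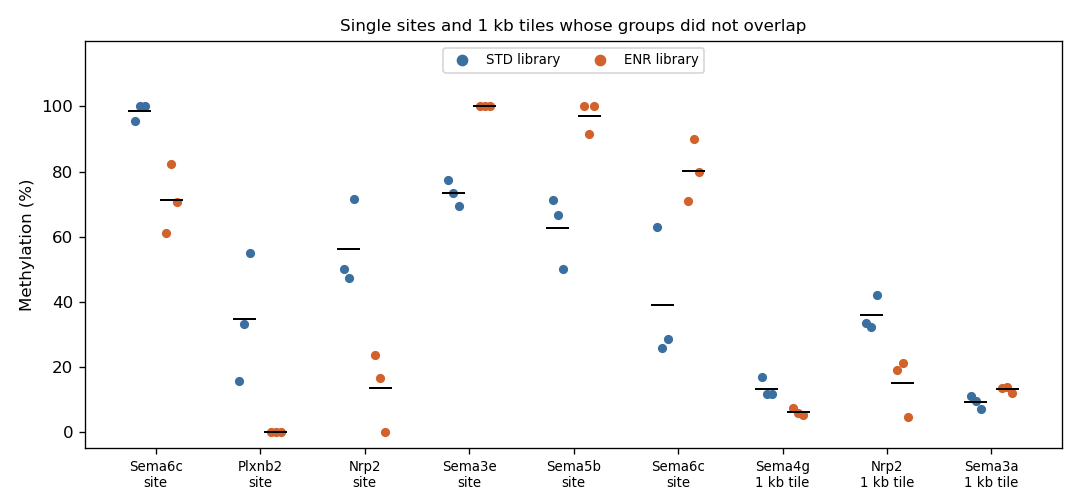
Methylation in percent (y axis) of the 6 sites and 3 tiles named above (x axis), with 1 point per mouse and a bar at the group mean (n = 3). The groups are apart at all of them, from the Nrp2 site with a difference of -42.8 percentage points to the Sema3a tile with 3.90, and no difference had an adjusted p under 0.05.

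Other genes of the pathway were taken from a list of 38 binding partners and effectors, among them Nrcam and Chl1, adhesion molecules that bind neuropilins, the collapsin response proteins Dpysl2 to Dpysl5 and the Mical oxidoreductases. All 38 were found, and 36 gene windows and 35 promoters had at least 3 sites. Limma called 0 of both, and 0 of both had an unadjusted p under 0.05. The groups did not overlap in 4 of the 36 windows, beside 8.35% over all genes, and in 5 of the 35 promoters, beside 9.65%. Gene windows were lower in ENR in 24 and higher in 12, beside 58.2% lower over all genes, and promoters lower in 21 and higher in 14, beside 52.8% lower. The lowest p in the direction of lower methylation was that of Cd72, a B cell receptor for Sema4d, whose window and promoter held the same 6 sites, with 15.5%, 3.40% and 6.19% in STD and 3.47%, 3.03% and 0% in ENR (promoter limma adjusted p = 0.990). STD1 was far above the other libraries and the groups overlapped. In the direction of higher methylation it was the promoter of Chl1, with 0.532%, 0.427% and 1.08% in STD and 5.30%, 1.16% and 1.96% in ENR over 8 sites with no overlap (limma adjusted p = 0.990), and the gene window of Vegfa, a growth factor that also binds neuropilins, with 8.35%, 8.24% and 7.35% in STD and 10.8%, 7.73% and 8.24% in ENR (limma adjusted p = 1.00). The promoters of these genes had a median level of 2.44%, beside 2.21% for the members.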

How the data were processed

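RRBS libraries of 6 mice (3 STD, 3 ENR) were analysed from a table of 890041 cytosines. The authors trimmed the reads, aligned them to mm10 and filtered cytosines by read depth. The submitters' processing notes name Trim Galore 0.4.0, cutadapt 1.8.1, Bismark 0.16.1 and methylKit 1.5.2. The deposited values are percent methylation, the percent of reads methylated per cytosine and library. Read numbers behind each percentage are unknown beyond the authors' minimum, so no interval for depth is given, the read-based test of the study was not run, and shallow sites weigh as much as deep ones.

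Percentages were averaged over sites per gene window, promoter (1 kb around each GENCODE M21 transcript start) or 1 kb tile, with at least 3 sites. They were tested with limma 3.58.1 (R 4.3.3, variance trend, Benjamini-Hochberg over all features), an approach tested on simulated data. Calls needed an adjusted p under 0.05 and, for sites and tiles, a difference over 25 percentage points. P-values measure the spread between mice. Sequence came from RefSeq GRCm38.p6, whose soft-masking gave the repeat share. Named for housing were the 3 members with the lowest p per measure, up to 3 non-overlapping sites (1 per gene) and 2 tiles per direction, and for promoters the 4 highest and the 2 lowest CpG-rich members. Members, gene lists and named items were chosen with earlier results of these data known. Exons were those of any gene model. Plxna3 and Plxnb3 are X-linked and outside the rule.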

Additional observations from a re-analysis of the deposited data

How the results depend on the processing

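The counts of called members, sites and tiles were 0 under each alternative for which calls were counted (no variance trend, arcsine square root scale, quantile normalization, replicate block, each library left out, both libraries numbered 3 left out). With the replicate block the smallest adjusted p of any member was 0.958 for gene windows, 0.941 for promoters, 0.882 for sites and 0.953 for tiles, and 0 promoters and 11 tiles of members had an unadjusted p under 0.05. Same-numbered libraries deviated together with correlations of 0.0552, 0.0319 and 0.125 over sites, and STD2 correlated best with ENR1, so the numbers were not taken to pair mice. Member sites past the difference limit numbered 51 with the limit at 20 percentage points, 3 with it at 40, 46 with group medians, 50 without both libraries numbered 3, and 34 to 56 with each library left out. With each library left out, the share of these sites lower in ENR ran from 35.3% without ENR3 to 70.6% without STD3, and at the limit of 40 it was 33.3%. The median promoter difference was -0.375 with medians over sites, which left 4 members that varied, and -0.279 to -0.0748 with each library left out. The gene start alone left 1 member over 20%, a limit of 10% gave 4 and a limit of 40% gave 0, and within 500 bases of a start it was 2, of which only Plxnb2 is shared. No difference of a named member changed its direction. Levels moved by more than their spread between libraries in 97 of 217 recomputations, mostly where the median replaced the mean over sites, and the cause was not tested. Depth per site is unknown, and few sites limit Sema3b, Sema4a and Sema3g.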
